A study of Rattus norvegicus with 12 samples.

Results

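Cdkn2b (ENSRNOG00000006735) and Cdkn1a (ENSRNOG00000000521) are 2 of the 32754 rat genes counted in QuantSeq 3′ mRNA libraries of RCS chondrocytes. Both were chosen by identifier because of their levels across these libraries in an earlier look at the data, so their own values are given as a description, with errors and intervals from the fit over all genes but no p-values. RCS is a chondrocyte line derived from the Swarm rat chondrosarcoma. WT RCS and 1 CRISPR clone lacking the FGF receptors FGFR3 and FGFR4 (FGFR3/4KO) were kept overnight in DMEM with 5% adult bovine serum, with FGF18 or untreated. The sample labels give FGF18 at 50 µg/ml. The paper's text gives the unit as ng/ml for the same libraries, so the labels and the paper differ in the dose. The 4 groups, WT untreated, WT FGF18, FGFR3/4KO untreated and FGFR3/4KO FGF18, had 3 libraries each, called biological replicates by the labels, and every group shared the same serum. Reads counted on genes ranged from 373964 (FGFR3/4KO untreated replicate 2) to 1196647 (WT FGF18 replicate 1) per library. The libraries stood apart by genotype in the share of listed reads that fell on genes, 12.5% to 14.5% in the 6 WT and 16.96% to 18.8% in the 6 FGFR3/4KO libraries, and in reads of low alignment quality, 77.0% to 79.8% against 71.2% to 74.6%. Genotype and this library difference cannot be told apart. Because the knockout is a single clone, a difference between FGFR3/4KO and WT RCS could belong to the clone or to the loss of the receptors, and these cannot be told apart. The levels of Fgfr3 and Fgfr4 were not analysed here, since names were available for 1998 identifiers that did not include them.

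Cdkn2b and Cdkn1a encode cyclin-dependent kinase (CDK) inhibitors of different families. Cdkn2b encodes p15, an INK4 protein that binds CDK4 and CDK6 and keeps them from pairing with D-type cyclins. Cdkn1a encodes p21, a Cip/Kip protein that inhibits CDK2 complexes, binds the replication clamp PCNA and is a classical target of p53. Both act upstream of the retinoblastoma proteins, which hold back E2F-driven genes of DNA replication and mitosis. In growth plate cartilage, FGF signalling through FGFR3 is known to restrain chondrocyte proliferation.

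The start regions of the genes are printed to show the letters before and around each start, and no relation between these letters and the response to FGF18 was tested. Each is the RefSeq promoter window on the GRCr8 assembly, from 250 bases before to 50 bases after the annotated start, read 5′ to 3′ on the gene's own strand. The Cdkn2b window lies at chr5:109134806-109135105 on the minus strand and the Cdkn1a window at chr20:7150682-7150981 on the plus strand. Capitals mark matches, on either strand, to 3 of the 6 motifs searched: GC box GGGCGG, cyclic AMP response element TGACGTCA and SMAD box CAGAC.
Cdkn2b: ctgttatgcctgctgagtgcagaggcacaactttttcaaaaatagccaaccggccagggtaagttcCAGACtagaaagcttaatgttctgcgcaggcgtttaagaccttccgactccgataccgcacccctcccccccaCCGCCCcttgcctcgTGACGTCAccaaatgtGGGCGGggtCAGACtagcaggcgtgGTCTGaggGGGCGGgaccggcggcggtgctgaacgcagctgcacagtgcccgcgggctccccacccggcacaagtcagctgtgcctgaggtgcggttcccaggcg
Cdkn1a: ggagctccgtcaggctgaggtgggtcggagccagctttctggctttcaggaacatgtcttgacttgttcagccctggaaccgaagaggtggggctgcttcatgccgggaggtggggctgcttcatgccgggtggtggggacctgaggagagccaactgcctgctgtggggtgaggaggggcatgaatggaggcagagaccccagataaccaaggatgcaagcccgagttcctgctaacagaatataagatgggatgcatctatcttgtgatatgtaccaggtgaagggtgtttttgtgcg

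The Cdkn2b window was rich in GC, at 62.3%, and held 21 CG dinucleotides, where the median of 33469 RefSeq windows was 51.7% and 7 CG dinucleotides. It held 3 GC boxes, whose first bases lay 111, 80 and 47 bases before the start, and 33.1% of all windows hold at least 1. A single cyclic AMP response element lay 96 bases before the start, a motif found in 1.83% of windows. SMAD boxes, the short motif of the SMAD factors that carry TGF-beta signals, lay 184, 71 and 55 bases before the start, and 50.1% of windows hold at least 1. The matches did not overlap. The Cdkn1a window had 56.7% GC and 7 CG dinucleotides and held no match to any of these motifs. Neither window held the AP-1 site TGANTCA (7.33% of windows), the E-box CACGTG (6.42%) or the TATA box TATAAA (14.2%). Each window covers only the annotated start of its gene, so motifs farther away or at other starts were not searched. No p53 motif was searched either. Reads near the 3′ end of a transcript do not show which start it used. These matches describe the letters of the windows and show no binding.

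In WT RCS the transcript of Cdkn2b was scarce without FGF18 and abundant with it. Values are CPM, the reads of a gene per 1000000 reads of its library, with library sizes scaled by edgeR's TMM method. WT untreated replicates 1, 2 and 3 held 31.9, 32.6 and 20.99 CPM, from 22, 24 and 21 reads. WT FGF18 replicates 1, 2 and 3 held 293, 343 and 485 CPM, from 357, 359 and 394 reads. The lowest WT FGF18 library was thus far above the highest untreated one. Group means were 28.5 ± 6.52 CPM (SD, n = 3) untreated and 374 ± 99.9 CPM (SD, n = 3) with FGF18. The fitted difference was 3.73 on the log2 scale (SE 0.22, 95% interval 3.28 to 4.18), a 13.3-fold higher level. It ranked 26 from the top of the 7378 genes that passed the filter on low counts.

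The FGFR3/4KO clone carried Cdkn2b at low levels that overlapped those of WT untreated cells, both without and with FGF18. FGFR3/4KO untreated replicates 1, 2 and 3 held 35.2, 25.5 and 41.6 CPM, the second of them from 9 reads in the shallowest library. With FGF18 the replicates held 29.003, 41.7 and 36.8 CPM. The libraries of these groups overlapped, with means of 34.1 ± 8.13 and 35.8 ± 6.39 CPM (SD, n = 3 each). The log2 difference between them was 0.02 (SE 0.27, 95% interval -0.55 to 0.58). The difference between the responses of the genotypes was -3.71 on the log2 scale (SE 0.37, 95% interval -4.47 to -2.96), which ranked 25 from the lowest of 7378 genes. With FGF18, FGFR3/4KO RCS held less Cdkn2b than WT RCS by 3.35 on the log2 scale, at 9.83% of the WT level, whereas without FGF18 the log2 difference was 0.37 (SE 0.30, 95% interval -0.24 to 0.97).

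Cdkn1a followed another pattern, with its lowest level in WT RCS under FGF18. WT untreated replicates 1, 2 and 3 held 300.0, 257 and 235 CPM, from 207, 189 and 235 reads. WT FGF18 replicates held 190.2, 172 and 175 CPM, from 232, 180 and 142 reads. Every WT FGF18 library was below every WT untreated library, with means of 179 ± 9.69 and 264 ± 33.1 CPM (SD, n = 3 each). The log2 difference was -0.55 (SE 0.14, 95% interval -0.84 to -0.27), so that the level with FGF18 was 68.2% of the untreated level. Among the 7378 genes, 15.7% had a lower log2 difference. Because both genes were chosen from their levels in these libraries, this place and the ranks given for Cdkn2b are description only. The same holds for groups whose libraries did not overlap, since the share of all genes that separate groups in this way was not counted.

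In FGFR3/4KO RCS, Cdkn1a stood above the WT FGF18 libraries in both conditions. Untreated replicates 1, 2 and 3 held 306, 309 and 339 CPM, and FGF18 replicates held 355, 334 and 281 CPM. These groups overlapped, with means of 318 ± 17.97 and 323 ± 38.0 CPM (SD, n = 3 each) and a log2 difference of 0.02 (SE 0.14, 95% interval -0.26 to 0.30). The difference between the responses of the genotypes was 0.57 on the log2 scale (SE 0.20, 95% interval 0.17 to 0.97). Like the other intervals given for Cdkn2b and Cdkn1a, this one is not adjusted for the number of genes tested or for their choice. With FGF18, FGFR3/4KO RCS held 1.80-fold more Cdkn1a than WT RCS, a log2 difference of 0.85 (SE 0.14, 95% interval 0.57 to 1.13). Without FGF18 the log2 difference was 0.28 (SE 0.14, 95% interval -0.01 to 0.56), with the highest WT library at 300.0 CPM and the lowest FGFR3/4KO library at 306 CPM. In order of mean level, Cdkn1a was highest in FGFR3/4KO FGF18, then FGFR3/4KO untreated, WT untreated and WT FGF18. The FGFR3/4KO groups overlapped each other, and the FGFR3/4KO FGF18 libraries also overlapped those of WT untreated. The libraries of FGFR3/4KO untreated and WT untreated did not overlap, and the interval of their difference included 0. For Cdkn2b the order was WT FGF18, FGFR3/4KO FGF18, FGFR3/4KO untreated and WT untreated, and the last 3 groups overlapped one another. The comparisons of each gene share libraries, so their values are not independent of one another.

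**Figure D1:**
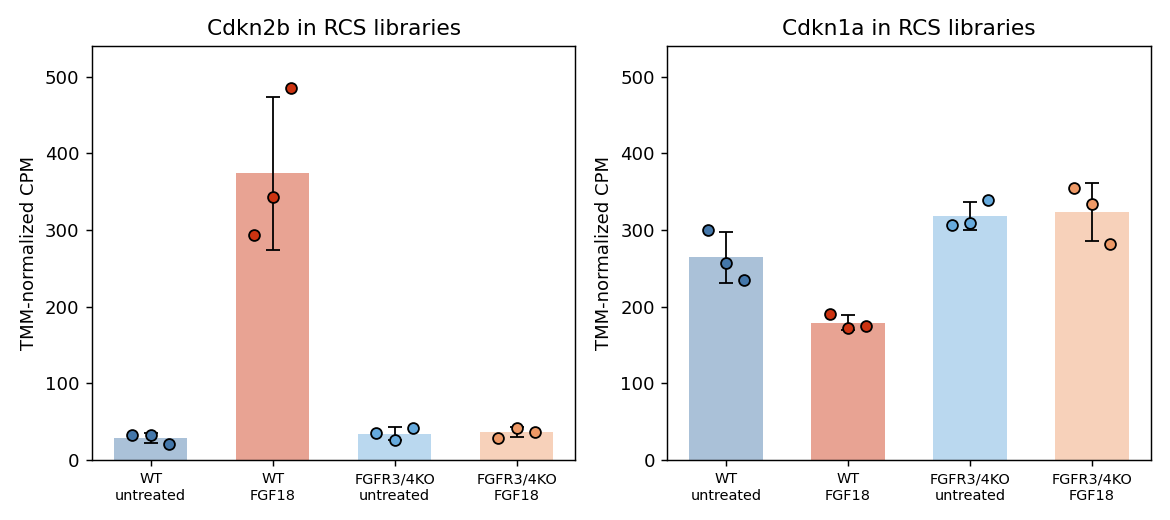
Level of Cdkn2b (left) and Cdkn1a (right) in TMM-normalized CPM in the 4 groups of RCS libraries; points are the 3 libraries of a group in the order of replicate number, bars are group means and error bars are SD. The 3 WT FGF18 libraries hold Cdkn2b at 293 to 485 CPM, above the other 9 libraries, and Cdkn1a at 172 to 190.2 CPM, below the other 9.

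The spread of Cdkn2b within groups was close to what counting reads alone gives where the gene was scarce, and larger where it was abundant. Its coefficient of variation between replicates was 22.9% in WT untreated libraries, 23.8% in FGFR3/4KO untreated and 17.8% in FGFR3/4KO FGF18, against 21.2%, 20.7% and 16.6% from counting. In WT FGF18 libraries it was 26.7% against 5.20% from counting, with replicate 3 at 485 CPM and replicate 1 at 293 CPM. Cdkn1a varied least in WT FGF18 libraries, by 5.41% against 7.36% from counting, and most in WT untreated libraries, by 12.5% against 6.90%. In bulk RNA, fewer cells that express a gene and less RNA per cell cannot be told apart.

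**Figure D2:**
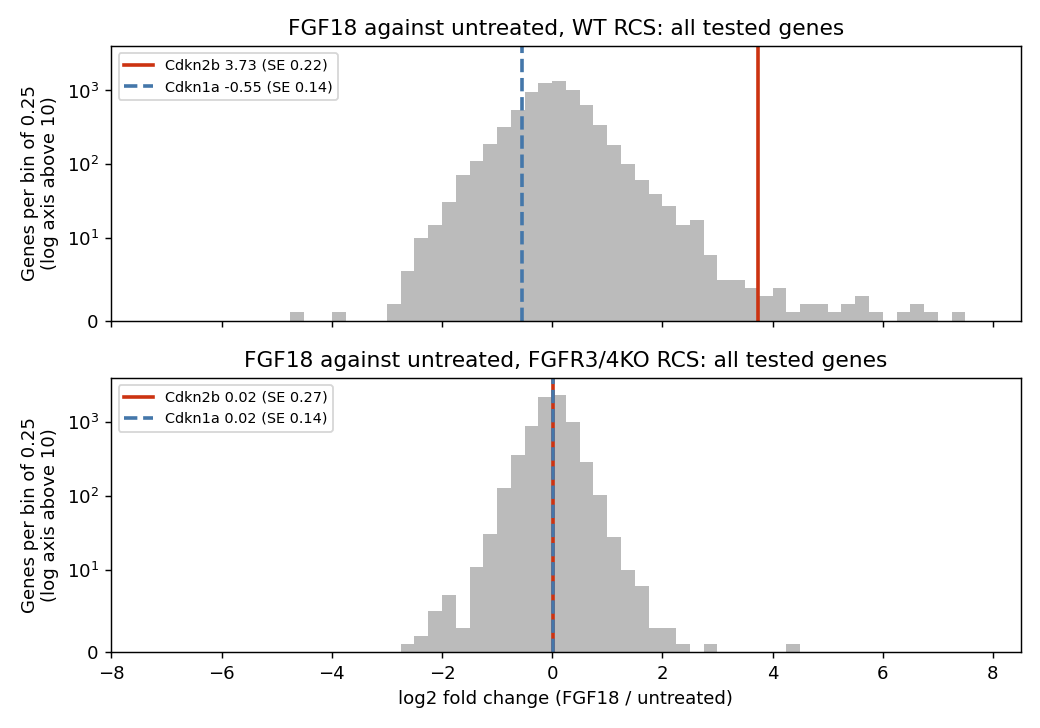
Number of the 7378 tested genes by log2 fold change of FGF18 against untreated, in bins of 0.25, in WT RCS (top) and FGFR3/4KO RCS (bottom), with the count on an axis that is linear up to 10 and logarithmic above; vertical lines mark Cdkn2b (solid) and Cdkn1a (dashed). In WT RCS Cdkn2b lies at 3.73 and Cdkn1a at -0.55, and in FGFR3/4KO RCS both lie at 0.02.

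The balance of the 2 transcripts differed between groups. QuantSeq reads each transcript near its 3′ end, so a share of reads can be compared between libraries but is no molar ratio of the 2 transcripts. Of the reads on either gene, Cdkn2b took 9.61%, 11.3% and 8.20% in WT untreated replicates 1, 2 and 3, and 60.6%, 66.6% and 73.5% in the WT FGF18 replicates. In FGFR3/4KO RCS it took 10.3%, 7.63% and 10.95% untreated, and 7.56%, 11.1% and 11.6% with FGF18. Exact binomial 95% intervals, which cover counting error only, ran from 56.5% to 64.6% for the lowest WT FGF18 library and from 8.41% to 15.5% for FGFR3/4KO FGF18 replicate 3. The WT FGF18 libraries stood apart from the other 9, which overlapped. The summed level of both genes was 292 ± 38.1 CPM in WT untreated, 553 ± 94.5 in WT FGF18, 352 ± 24.7 in FGFR3/4KO untreated and 359 ± 35.9 in FGFR3/4KO FGF18 libraries (SD, n = 3 each).

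The genes around the CDK inhibitors were then read from 10 lists of cell cycle and signalling genes, which, like both members, were chosen with earlier results of these data known. Of 221 listed genes other than Cdkn2b and Cdkn1a, 84 carried a symbol and 69 were tested. In the CDK inhibitor list itself no other member had a symbol, so the other INK4 and Cip/Kip genes were not analysed here. In WT RCS, 34 of the 69 genes fell and 5 rose with FGF18 at an FDR of 0.05 (edgeR's quasi-likelihood test, Benjamini-Hochberg adjusted over 7378 genes), where 12.8% of all tested genes fell and 12.9% rose. Their median log2 fold change was -0.54, against 0.02 over all tested genes, and the list medians that follow are on the same scale. In FGFR3/4KO RCS, 0 of the 69 genes passed, as did 0% of all tested genes, and their median was -0.05 against 0.01. At an unadjusted p under 0.05, edgeR's quasi-likelihood test gave 478 of 7378 genes in FGFR3/4KO RCS. After adjustment edgeR's likelihood-ratio test called 3 genes and DESeq2 0, and before it they gave 504 and 286. For the difference in response between the genotypes, 23 of the 69 genes were called above 0 and 3 below, against 5.91% and 4.96% of all tested genes. The p-values measure the spread between these libraries.

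Among the kinases of the cell cycle and their controllers, most tested genes fell in WT RCS with FGF18. Of 4 tested genes of the list of CDKs, cyclins and CDK regulators, 3 fell and 0 rose, with a list median of -0.94. Cdk1, the kinase of mitotic entry, went from 75.8 ± 7.37 to 27.5 ± 4.06 CPM (SD, n = 3 in both), or -1.47 on the log2 scale (SE 0.20, FDR 2.21e-06, edgeR). Cdk2, the S-phase kinase inhibited by p21, fell by 0.93 on the log2 scale (SE 0.31, FDR 0.0296, edgeR), a call lost without WT untreated replicate 1 (FDR 0.0800) or 3 (0.128) or WT FGF18 replicate 1 (0.149) or 3 (0.0548). Pkmyt1, a kinase that keeps Cdk1 inactive, fell by 0.96 (FDR 0.00621, edgeR), and Cdk2ap1, a CDK2-associated protein, stood at -0.03 (FDR 0.893, edgeR). In FGFR3/4KO RCS, Cdk1 was at 92.6 ± 8.47 CPM untreated and 84.8 ± 3.42 CPM with FGF18 (SD, n = 3 each). CDK4, CDK6 and the D-type cyclins had no symbol in the table and were not analysed here.

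Of the factors that act between the kinases and their target genes, Foxm1, a transcription factor of G2 and mitosis genes, was the tested gene that fell. Its level went from 134 ± 10.4 to 37.2 ± 4.54 CPM in WT RCS (SD, n = 3 in both), or -1.86 on the log2 scale (SE 0.19, FDR 2.24e-08, edgeR). The clone held 218 ± 39.6 CPM untreated and 193 ± 21.2 CPM with FGF18 (SD, n = 3 each), and without FGF18 it was above untreated WT RCS by 0.67 on the log2 scale (FDR 0.00485, edgeR). Lin54, the DNA-binding subunit of the DREAM complex, had a log2 fold change of -0.78 in WT RCS (FDR 0.240, edgeR). E2f6, a repressive E2F, stood at 0.17 (FDR 0.749, edgeR) with FGF18 and was higher in the untreated clone than in untreated WT RCS by 1.70 (FDR 0.00020, edgeR). Over this list of 3 tested genes, 1 fell and 0 rose, with a median of -0.78.

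Genes of DNA replication and mitosis, the steps that CDK inhibitors hold back, made up most of the falls. Their lists were also the largest, with 15 and 19 of the 69 tested genes. A part of the CDK inhibitors in these falls was not tested. In the DNA replication list 14 of 15 tested genes fell and 0 rose in WT RCS, with a list median of -1.02 against 0.15 in FGFR3/4KO RCS. Chaf1b, a chromatin assembly factor, fell from 128 ± 7.04 to 48.4 ± 6.72 CPM (SD, n = 3 in both), or -1.41 on the log2 scale (FDR 1.67e-06, edgeR). Rfc3, a subunit of the clamp loader, fell by 1.29 and Asf1b, a histone chaperone, by 1.17. Mcm4, a subunit of the replicative helicase, fell by 1.11, and Dtl, the substrate receptor through which PCNA-bound p21 is degraded, by 1.27. Cdc7, the kinase that fires replication origins, fell by 1.24 (FDR 0.0232, edgeR), a call lost without WT untreated replicate 2 (FDR 0.0774) or 3 (0.131) or WT FGF18 replicate 1 (0.0941) or 2 (0.123). The call of Dtl was lost without WT untreated replicate 3 (FDR 0.0647, edgeR). Rnaseh2a, the remaining gene of the list, stood at -0.19 (FDR 0.774, edgeR).

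In the mitosis list 14 of 19 tested genes fell and 0 rose in WT RCS, with a median of -1.09 against -0.06 in FGFR3/4KO RCS. Spc25, a kinetochore protein, went from 253 ± 21.95 to 88.6 ± 4.16 CPM (SD, n = 3 in both), or -1.51 on the log2 scale (SE 0.15, FDR 3.08e-08, edgeR). Aurkb, the chromosomal passenger kinase, fell by 1.76, from 43 to 16 reads over 3 libraries each. Kif18a, a kinesin that aligns chromosomes, fell by 1.63. Ncapg2, a condensin subunit, fell by 1.62. Ercc6l, a helicase of anaphase bridges, fell by 1.54, a call lost without WT untreated replicate 2 (FDR 0.0540, edgeR). Cit, a kinase of cytokinesis, fell by 1.34 (FDR 0.0169, edgeR), a call lost without WT untreated replicate 2 (FDR 0.0840) or 3 (0.0922) or WT FGF18 replicate 1 (0.0845). For the difference in response between the genotypes, 8 replication and 11 mitosis genes were called above 0 and 0 below.

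**Figure D3:**
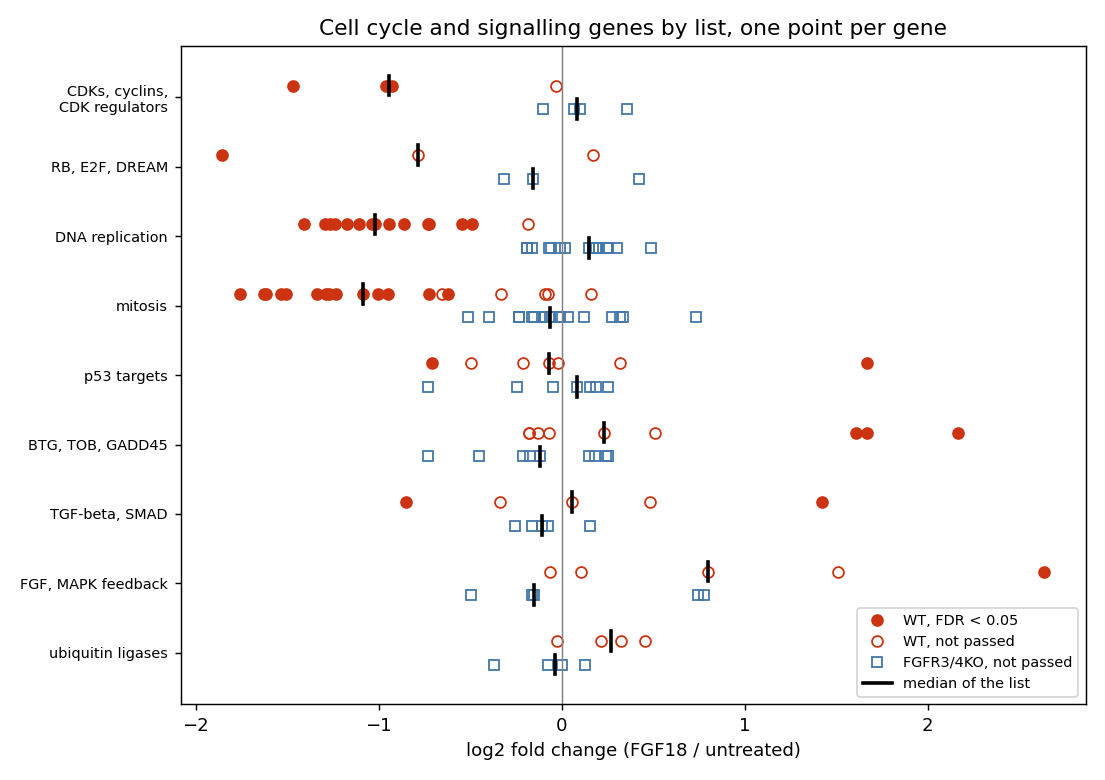
Log2 fold change of FGF18 against untreated for each tested gene of 9 lists, with WT RCS as circles (filled at an FDR under 0.05) and FGFR3/4KO RCS as open squares; black ticks are list medians, and a gene in 2 lists is drawn in both. DNA replication and mitosis genes lie to the left in WT RCS, with medians of -1.02 and -1.09, and around 0 in FGFR3/4KO RCS.

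The p53 target list, to which Cdkn1a itself belongs by its known biology, had members on both sides of 0. Of 7 tested genes, 1 rose and 1 fell in WT RCS, with a list median of -0.07. Gadd45a, a stress-induced inhibitor of growth, rose from 43.1 ± 8.01 to 135 ± 2.89 CPM (SD, n = 3 in both), or 1.67 on the log2 scale (SE 0.20, FDR 4.66e-07, edgeR). Sesn1, a stress-induced inhibitor of mTORC1 signalling, fell by 0.71 (FDR 0.0428, edgeR), a call lost under DESeq2 (FDR 0.117), under both other filters on low counts and without any 1 of the 6 WT libraries (FDR from 0.0535 to 0.128). Mdm2, the ubiquitin ligase of p53, had 171 ± 28.6 and 167 ± 36.6 CPM (SD, n = 3 each). Ccng1, the p53-induced cyclin G, stood at 0.32 (FDR 0.159, edgeR), Ppm1d, a phosphatase that restrains p53, at -0.50 (FDR 0.285, edgeR), Bak1, a pore-forming protein of apoptosis, at -0.21 (FDR 0.536, edgeR) and Btg2 at -0.07 (FDR 0.896, edgeR).

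Among antiproliferative genes of the BTG, TOB, GADD45 and quiescence list, 3 of 9 tested genes rose and 0 fell in WT RCS, with a median of 0.23. Btg1, a regulator of mRNA decay that slows proliferation, went from 169 ± 13.7 to 518 ± 32.6 CPM (SD, n = 3 in both), or 1.61 on the log2 scale (SE 0.15, FDR 4.03e-09, edgeR). The clone held Btg1 at 199 ± 46.3 CPM untreated and 240.2 ± 20.6 CPM with FGF18 (SD, n = 3 each). Ccng2, a cyclin of cell cycle exit, rose by 2.17 (FDR 0.0143, edgeR) from 7 to 42 reads over 3 libraries each, a call lost without WT untreated replicate 2 (log2 fold change 2.11, FDR 0.0582) or replicate 3 (log2 fold change 1.44, FDR 0.136). Gadd45a is also in this list. Mnt, an antagonist of Myc, stood at 0.51, Tob1 at 0.23 and Btg3 at -0.18, and none of these passed.

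TGF-beta signals through SMAD factors, and Cdkn2b is one of its classical targets. In this list 1 of 5 tested genes rose and 1 fell in WT RCS, with a list median of 0.06. Acvr1, a type I receptor of the family, rose by 1.42 (FDR 0.0312, edgeR), a call lost under DESeq2 (FDR 0.0568) and without WT untreated replicate 1 (FDR 0.125) or 2 (0.141) or WT FGF18 replicate 2 (0.0950) or 3 (0.0971). Tgfb2, a ligand, fell from 217 ± 21.1 to 119 ± 31.4 CPM (SD, n = 3 in both), or -0.85 on the log2 scale (FDR 0.000815, edgeR). The untreated clone held Tgfb2 at 515 ± 25.3 CPM (SD, n = 3), above untreated WT RCS by 1.25 on the log2 scale (FDR 9.79e-06, edgeR). The ubiquitin ligase Smurf1 stood at 0.48, the coactivator Crebbp at 0.06 and Myc, a repressor of both CDK inhibitors, at -0.34 (FDR 0.634, edgeR) from 25 reads in each WT group.

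Of the FGF and MAPK pathway with its feedback genes, 1 of 5 tested genes rose and 0 fell in WT RCS, with a median of 0.80. Etv5, an ETS factor induced by FGF signalling, rose from 10.9 ± 2.49 to 70.6 ± 12.5 CPM (SD, n = 3 in both), or 2.64 on the log2 scale (SE 0.29, FDR 8.83e-08, edgeR). Unlike the level of Cdkn2b, that of Etv5 was high in the clone without FGF18, at 56.1 ± 3.18 CPM (SD, n = 3), above untreated WT RCS by 2.33 (FDR 6.80e-06, edgeR). Dusp1, a phosphatase that switches MAP kinases off, had a log2 fold change of 1.51 (FDR 0.0625, edgeR), from 13 to 47 reads, and passed under 4 of the other settings. Spred1, an inhibitor of Ras signalling, stood at 0.80 (FDR 0.185, edgeR), the exchange factor Sos2 at 0.10 and the receptor adaptor Frs2 at -0.07. Of 4 tested genes of the ubiquitin ligase list, 0 passed in either direction, with a median of 0.27. Their log2 fold changes were 0.45 for Cul4b, 0.32 for Cul1, 0.22 for Rnf2 and -0.03 for Skp1. Cul1 and Skp1 are subunits of the SCF ligases and Cul4b is the scaffold of CRL4 ligases, both known to act on p21 or cyclins, whereas Rnf2 is known as a Polycomb ligase of histone H2A.

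Without FGF18, 7 of the 69 list genes were higher and 4 lower in FGFR3/4KO than in WT RCS, against 8% and 6.07% of all tested genes, with a median of -0.04. Over all tested genes, 56.8% of the calls in this comparison were higher, and 38.2% with library total scaling, which moved the median of all genes by -0.11. The share of reads on genes was higher in every FGFR3/4KO library than in every WT library, and its part in these counts was not tested. With FGF18, 31 were higher and 9 lower, against 16.9% and 17%, with a median of 0.50. Foxm1 was above WT RCS by 2.37 on the log2 scale, Spc25 by 1.64 and Cdk1 by 1.63. The log2 difference was -1.57 for Gadd45a and -1.10 for Btg1, and it was -2.46 for Dusp1, -2.08 for Spred1 and -1.73 for Btg2. This comparison shares its WT FGF18 libraries with the comparison of FGF18 and untreated in WT RCS.

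Among 1417 other tested genes with a symbol, the ones most like each CDK inhibitor were picked by the Pearson correlation of log2 CPM over the 12 libraries, which share the same 4 groups. For Cdkn2b these were Vgf (0.98), a secreted neuropeptide precursor, Phlda1 (0.97), a growth factor-induced gene, Flot1 (0.96), a membrane raft scaffold, Btg1 (0.96) and Scpep1 (0.95), a lysosomal carboxypeptidase. Over the 9 libraries outside WT FGF18, a set chosen after seeing the data, the values were 0.15, 0.04, 0.11, 0.67 and 0.39, and the first of these rests on a single read of Vgf. Vgf passed the filter on low counts through the WT FGF18 group, with 0 reads in the WT untreated and FGFR3/4KO FGF18 libraries, 1 read in the FGFR3/4KO untreated libraries and 66 reads in the WT FGF18 libraries. Phlda1 held 132 ± 11.7 CPM in WT untreated, 1191 ± 27.5 in WT FGF18, 116 ± 9.55 in FGFR3/4KO untreated and 159 ± 35.2 in FGFR3/4KO FGF18 libraries (SD, n = 3 each). The genes least like Cdkn2b were Mcm6 (-0.97), a helicase subunit, Spc25 (-0.96) and Cep57 (-0.96), a centrosome protein.

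For Cdkn1a the most similar genes were Odc1 (0.96), the first enzyme of polyamine synthesis, Tube1 (0.95), an epsilon tubulin, Umps (0.95), an enzyme of pyrimidine synthesis, Abcf1 (0.95), a translation factor, and Prelp (0.94), a cartilage matrix protein. Over the 9 libraries outside WT FGF18 they had values of 0.77, 0.83, 0.77, 0.71 and 0.71, and those libraries differ in genotype. Odc1 held 127 ± 6.97 CPM in WT untreated, 70.8 ± 7.54 in WT FGF18, 147 ± 16.2 in FGFR3/4KO untreated and 169.9 ± 17.5 in FGFR3/4KO FGF18 libraries (SD, n = 3 each). Hexim1 (-0.95), an inhibitor of transcription elongation, Celf5 (-0.94), an RNA-binding protein, and Rbck1 (-0.93), a subunit of a ubiquitin ligase, were the least similar, at -0.79, -0.80 and -0.82 over the 9 libraries.

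**Figure D4:**
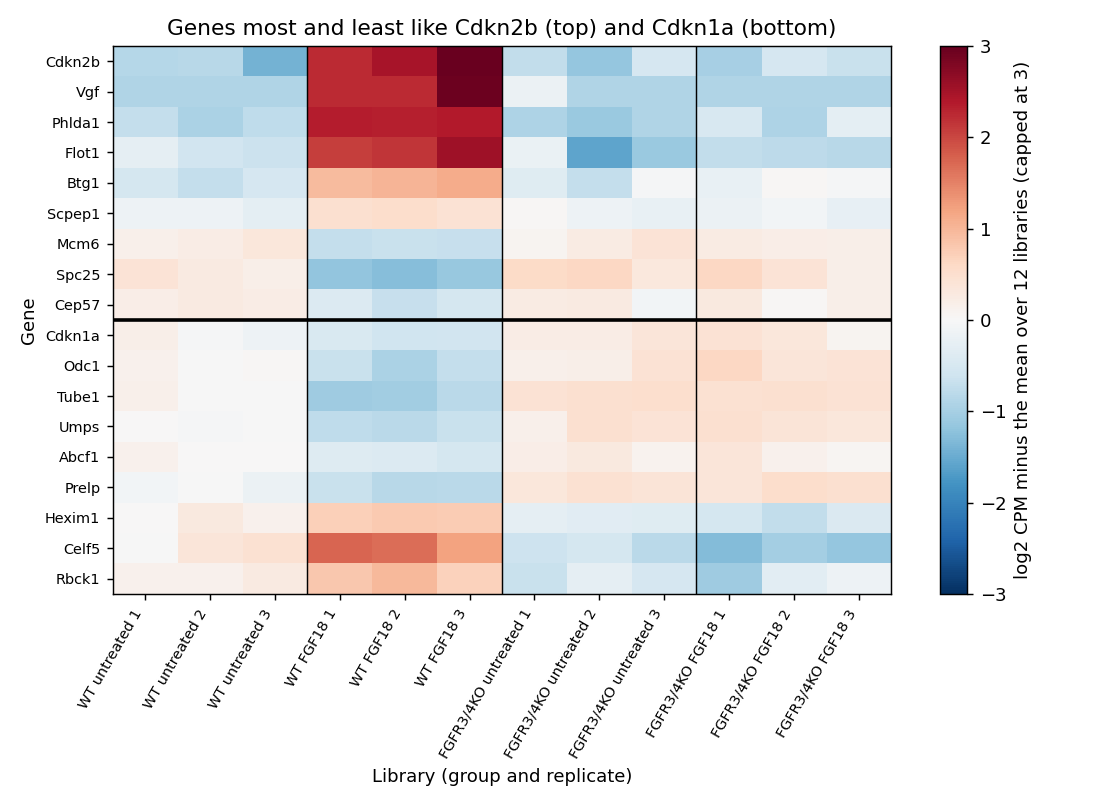
Log2 CPM minus the gene's mean over the 12 libraries, on a colour scale that ends at 3 in either direction, for Cdkn2b with its 5 most and 3 least similar genes (above the thick line) and Cdkn1a with its own (below it); columns are libraries by group and replicate. In both blocks the 3 WT FGF18 libraries stand out from the other 9.

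Neighbouring genes were read from the RefSeq gene order, among the 3 nearest protein-coding genes on either side. Mtap, a methionine salvage enzyme next to the INK4 locus, held 19.8, 17.9, 19.4 and 18.2 CPM on average in WT untreated, WT FGF18, FGFR3/4KO untreated and FGFR3/4KO FGF18 libraries, with a log2 fold change of -0.15 in WT RCS (FDR 0.777, edgeR). Stk38, a kinase near Cdkn1a, held 143, 151, 165 and 213 CPM, with a log2 fold change of 0.08 in WT RCS (FDR 0.833, edgeR). Kctd20 and Cpne5, also near Cdkn1a, did not pass the filter on low counts, and the other neighbours were not analysed here by name.

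Cell type markers were read beside these results. All 12 libraries held chondrocyte genes, with 8 of 14 listed markers named. Their summed level was 6549 to 6865 CPM in WT untreated, 5932 to 6315 in WT FGF18, 8129 to 8198 in FGFR3/4KO untreated and 8442 to 8765 in FGFR3/4KO FGF18 libraries, so that it was lowest in the group with the highest Cdkn2b and lowest Cdkn1a, and its part in these levels was not tested. The members did not move one way, as 1 of 7 tested markers rose and 2 fell with FGF18 in WT RCS. Mia, a secreted cartilage protein, rose by 0.37 on the log2 scale (FDR 0.0158, edgeR), while Prelp fell by 0.68 and Fmod, a collagen-binding proteoglycan, fell by 0.57. Acan and Col2a1 were not analysed here by name. Sox9, the master regulator of chondrocytes, held 1439 ± 61.4, 1358 ± 89.2, 1785 ± 251 and 1973 ± 79.9 CPM in WT untreated, WT FGF18, FGFR3/4KO untreated and FGFR3/4KO FGF18 libraries (SD, n = 3 each). Prelp was the most abundant marker except in WT FGF18 libraries, where it was Mia. Markers of other cell types were few but not evenly spread. Summed over 5 hepatocyte genes, WT untreated replicates held 10.1, 16.3 and 1.999 CPM, WT FGF18 replicates 9.84, 37.3 and 43.1, FGFR3/4KO untreated replicates 27.6, 28.3 and 36.2, and FGFR3/4KO FGF18 replicates 0, 7.09 and 8.29. Alb, the serum albumin gene and the most abundant of them, ran from 0 to 28.3 CPM. It was called higher with FGF18 in WT RCS (log2 fold change 1.79, FDR 0.0235, edgeR), where WT FGF18 replicate 1 at 5.74 CPM lay within the range of the WT untreated libraries, from 1.999 to 9.52 CPM. Alb was also called for the difference in response between the genotypes (-4.35, FDR 0.00089, edgeR). Both differences have the sign of those of Cdkn2b, as does that between genotypes with FGF18 (-2.34). Unlike Cdkn2b, at 0.37, Alb was called higher in untreated FGFR3/4KO than in untreated WT RCS, by 2.01 (FDR 0.0239, edgeR). With FGF18 in FGFR3/4KO RCS, Alb stood at -2.56 (FDR 0.622, edgeR) and Cdkn2b at 0.02. The part of the hepatocyte genes in the result was not tested. Summed over 4 neuron genes, of which Syt1 was the most abundant, libraries held 11.3 to 79.4 CPM, the highest in WT FGF18 replicate 2. The part of the neuron genes in the result was not tested.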

How the data were processed

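QuantSeq 3′ mRNA libraries of 12 RCS samples were used, 3 in each of 4 groups assigned from the sample labels. The authors trimmed the reads (Trim Galore), aligned them to rn6 (STAR) and ran htseq-count per gene. What the authors deposited are these read counts, unscaled. Tool versions are not given in the sources used here. Gencode v19 is the stated gene model, though each identifier is that of an Ensembl rat gene. Reads on genes were 12.5% to 14.5% of those listed in WT and 16.96% to 18.8% in FGFR3/4KO libraries. The classes left uncounted, low alignment quality (77.0% to 79.8% and 71.2% to 74.6%) and no feature (7.44% to 9.96%), stayed out of library sizes.

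Counts were analysed with edgeR 4.0.16 in R 4.3.3: filterByExpr (minimum count 10, minimum total 15) kept 7378 of 32754 genes, including both members. TMM scaling and 1 quasi-likelihood model with a mean per group over 12 libraries followed, with p-values adjusted by Benjamini-Hochberg and called at 0.05. Log2 CPM used a prior count of 2. Standard errors are log2 fold changes over the square root of F. The test was checked on simulated counts. The amount that 3 reads stand for ranged from 2.46 to 8.50 CPM, counting error only, since the reads carry no molecular identifiers and several can stem from 1 molecule. Replicates of a group differed by more than counting error (chi-square 1.56 to 5.67 times its degrees of freedom).

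Symbols came from the 1998 identifier and symbol pairs of a supplementary table, whose values were not used, and 1418 tested genes had one. The RefSeq gene table pairs no Ensembl identifiers, so it served for gene order only, among protein-coding genes. Promoters were matched by symbol (both genes found). One gene is not reported here and was left out of the lists. The genes, the lists and the tests were chosen with earlier results of these data known. Named genes were both members, up to 6 tested genes per list with the largest log2 fold change in WT RCS, 5 genes most and 3 least correlated with each member, and neighbours. Mdm2 and Rnaseh2a were picked from the lists after their values were seen. Alternatives were the likelihood-ratio test, DESeq2 1.42.0, upper-quartile and library total scaling, other filters, fits on only the compared groups, blocking by replicate number, and leaving out each library in turn.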

Additional observations from a re-analysis of the deposited data

Results flagged for a closer look

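These genes of the cell cycle and signalling lists responded differently to FGF18 in WT and FGFR3/4KO RCS by a test of the difference itself (the interaction of FGF18 and genotype in edgeR's quasi-likelihood fit, FDR over 7378 genes, 3 libraries per group, 10.9% of all tested genes called in either direction). Values are log2 differences, FGFR3/4KO response minus WT response, and the WT FGF18 libraries are shared by them all. Only genes that passed are given, out of the 44 list genes named by their fold change in WT RCS. That fold change is part of the difference tested, so this choice favours large values. Of the replication and mitosis genes named in this way, Dtl, Cdc7, Kif18a, Ercc6l and Cit did not pass. Of the CDK genes, Cdk1 differed by 1.36 (FDR 0.00077), Pkmyt1 by 1.06 (FDR 0.0446) and Cdk2 by 1.28 (FDR 0.0470), and Foxm1 differed by 1.70 (FDR 2.42e-05). Of the replication genes, Chaf1b differed by 1.25 (FDR 0.00148), Rfc3 by 1.60 (FDR 2.99e-05), Asf1b by 1.38 (FDR 0.00408) and Mcm4 by 1.35 (FDR 0.00023). Of the mitosis genes, Aurkb differed by 2.09 (FDR 0.0270), Ncapg2 by 1.38 (FDR 0.00631) and Spc25 by 1.42 (FDR 3.69e-05).

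In the other direction, Gadd45a differed by -1.42 (FDR 0.00372), Btg1 by -1.37 (FDR 6.02e-05) and Etv5 by -1.86 (FDR 0.00126). Etv5 held 56.1 ± 3.18 CPM in FGFR3/4KO untreated and 97.1 ± 26.03 CPM in FGFR3/4KO FGF18 libraries (SD, n = 3 in both), or 0.78 on the log2 scale, with an FDR of 0.622 (edgeR).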

How the results depend on the processing

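The log2 differences moved by less than the SD of single replicates under every alternative run, 0.338 for Cdkn2b and 0.136 for Cdkn1a on the log2 scale. Single libraries spread more than group means do, so this comparison is no test of stability. With library total scaling, the Cdkn1a difference between untreated FGFR3/4KO and WT RCS went from 0.28 to 0.17. With each library left out in turn, Cdkn2b ranged from 3.49 to 3.88 (FGF18 in WT RCS), from -0.10 to 0.22 (FGF18 in FGFR3/4KO RCS), from -3.87 to -3.46 (interaction), from 0.16 to 0.48 (FGFR3/4KO against WT, untreated) and from -3.50 to -3.09 (the same with FGF18). Cdkn1a ranged from -0.64 to -0.46, from -0.04 to 0.13, from 0.47 to 0.70, from 0.20 to 0.38 and from 0.81 to 0.98.

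Genes called for FGF18 in FGFR3/4KO RCS went from 0 to 3 with the likelihood-ratio test, 20 with no filter, 1 with at least 1 CPM in 3 libraries and 2 in a model of only the groups compared, and list genes from 0 to 1 with no filter. List genes called between untreated FGFR3/4KO and WT RCS went from 11 to 17 in a model of only the groups compared. Leaving out libraries gave 1322 to 2117 genes in WT RCS (33 to 41 list genes), 0 to 1 in FGFR3/4KO RCS (1 without WT FGF18 replicate 3), 561 to 880 for the interaction (20 to 28) and 2060 to 2519 between genotypes with FGF18 (34 to 45). Between untreated genotypes it gave 679 to 1211 (8 to 15), against 1038, with 687 without FGFR3/4KO untreated replicate 1 and 679 without replicate 3. Library total scaling moved the median of all genes in that comparison by -0.11 and the share of higher genes among the calls from 56.8% to 38.2%. Causes were not tested.

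The replicate numbers shared by the groups named no common batch, and libraries of the same number did not deviate together (mean r -0.03 over 18 pairs, 0.02 over 36 pairs of different numbers), and 0 of 12 libraries correlated best with 1 of its own number. With the replicate block, 1760 genes passed in WT RCS, against 1898, and 674 for the interaction, against 802, and Dusp1 was called (FDR 0.0462).

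Small log2 fold changes in WT RCS changed sign. Crebbp went to -0.023 with library total scaling. With libraries left out, Crebbp ranged from -0.034 to 0.16, Cdk2ap1 from -0.17 to 0.025, E2f6 from -0.18 to 0.38, Btg2 from -0.51 to 0.10, Sos2 from -0.059 to 0.56, Frs2 from -0.18 to 0.059 and Skp1 from -0.19 to 0.12. For FGF18 in WT RCS, and over the 44 list genes named by fold change alone, 25 calls were lost in fits without a library and 4 under other settings, and 4 were gained, for Dusp1. Calls of other named genes and in other comparisons were not followed singly. Depth limits what scarce genes such as Ccng2 can show.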
